A study of Mus musculus with 3 samples.

Results

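The 9 genes described here, Neurog3, Neurod1, Pax4, Pax6, Isl1, Nkx2-2, Rfx6, Insm1 and Lmx1a, encode transcription factors of the enteroendocrine lineage. They were taken by symbol from the 31053 genes counted in single cells of the mouse small intestine, and all 9 were found. Cells came from wildtype C57BL/6N mice, all male and 12 weeks old. Epithelial cells and intraepithelial immune cells of 3 mice were pooled, sorted as live cells that excluded propidium iodide, and sequenced as 1 droplet library per segment (duodenum, jejunum, ileum). With pooled animals and 1 library per segment, animals cannot be told apart and segments have no replicate, so differences between segments were not tested.

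Enteroendocrine cells (EECs) are the scattered hormone-producing cells of the gut epithelium and arise from crypt stem cells through a secretory progenitor. The bHLH factor Neurog3 is switched on for a short time in that progenitor and commits it to the endocrine fate, and Neurod1, Insm1, Pax4, Pax6, Isl1, Nkx2-2, Rfx6 and Lmx1a act during or after this step. The subtypes are named by their main product: I cells make Cck, D cells Sst, L cells Gcg, K cells Gip, N cells Nts, and enterochromaffin (EC) cells make serotonin with the enzyme Tph1.

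The upstream sequences of Isl1 and Lmx1a are shown because these genes divided the EECs most plainly by hormone. Each run holds the 250 bases before the RefSeq start (GRCm38.p6), 5′ to 3′ on the gene's strand, with the E-box word CANNTG, which bHLH factors such as Neurog3 and Neurod1 recognise, in capitals.
Isl1, chr13:116309689-116309938, minus strand: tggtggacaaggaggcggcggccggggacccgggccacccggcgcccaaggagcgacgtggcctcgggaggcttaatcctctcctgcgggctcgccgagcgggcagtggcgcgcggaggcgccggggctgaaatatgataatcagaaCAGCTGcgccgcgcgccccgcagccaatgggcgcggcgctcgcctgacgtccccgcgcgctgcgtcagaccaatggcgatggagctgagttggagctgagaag
Lmx1a, chr1:167689308-167689557, plus strand: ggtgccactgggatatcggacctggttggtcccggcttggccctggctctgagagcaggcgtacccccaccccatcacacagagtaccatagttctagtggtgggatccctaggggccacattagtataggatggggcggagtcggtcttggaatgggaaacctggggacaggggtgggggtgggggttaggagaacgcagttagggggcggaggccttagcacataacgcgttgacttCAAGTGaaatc
Both windows held 1 E-box, CAGCTG in Isl1 and CAAGTG in Lmx1a. With both strands read, CANNTG occurred in 66.2% of 32851 promoters of the same length, so a match in these windows is common, and it marks letters, not a bound site. Promoters of 7 of the 9 genes were found in the table. Isl1 (ENSMUSG00000042258, 6 exons) spans chr13:116298281-116309689 on the minus strand, and Lmx1a (ENSMUSG00000026686, 9 exons) spans chr1:167689237-167848741 on the plus strand, in the GENCODE M21 annotation of GRCm38. In the same annotation Neurog3 lies at chr10:62133090-62134763, Neurod1 at chr2:79452521-79456751, Pax4 at chr6:28442334-28449353 and Pax6 at chr2:105668900-105697364. Nkx2-2 lies at chr2:147177546-147194243, Rfx6 at chr10:51677756-51730432 and Insm1, which has a single exon, at chr2:146221921-146225020. The Lmx1a window printed above lies inside the gene as annotated here, since the RefSeq start used for it is further downstream.

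Of 27235 barcodes, 16686 passed the study's limits. These were 4255 duodenal, 4360 jejunal and 8071 ileal barcodes, with 57079945, 58186946 and 66148396 unique molecular identifiers (UMIs, each 1 captured transcript). Median depth was 12424, 11737 and 5536 UMIs per cell, and 21 barcode sequences recurred between libraries among the kept cells. The study recognised its EEC cluster by Chga and Neurod1. A Neurod1 or Chga UMI, a looser mark applied here to single barcodes, was found in 879 kept barcodes, and 711 of these (80.9%) lay outside the EEC-like cluster. Most of the 711 were in clusters led by the enterocyte marker list (630 barcodes), and 561 held a single UMI of both genes together. These 711 barcodes held 7 Pax6, 7 Isl1, 4 Nkx2-2, 3 Neurog3 and 2 Insm1 UMIs, and 0 of Pax4, Rfx6 and Lmx1a. Throughout, EECs are the 168 marked barcodes within the cluster, 52 duodenal, 24 jejunal and 92 ileal, and leaving out the other 711 raises the levels of the members in EECs. The cluster was named by its list of secretory granule markers (Chga, Chgb, Sct and others), so their level in EECs is a description. It was 585.7 UMIs per 10000 UMIs, against 0.197 in crypt, 7.56 in tuft and 6.10 in goblet cells. Most of each sum came from the hormone gene Sct, at 417.6, 0.130, 7.19 and 5.90 in these classes. Chga stood at 37.5, 0.0135, 0.0849 and 0.0115. Every level given here sums a gene's UMIs over a set of cells and scales them to 10000 UMIs, with an exact 95% Poisson interval in brackets. For a share of cells the interval is exact binomial, also at 95%. These intervals cover counting error only.

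Neurog3 was all but missing from the cells the limits kept. In EECs it had 1 UMI, in 1 ileal cell of 168, and 0 UMIs in the 225 crypt, 298 tuft, 747 goblet and 1227 T cells, which, at a limit of 3 counts, allows a share of up to 1.33% of crypt cells with a UMI. The ileal EEC passed no hormone threshold and also held 15 Neurod1, 3 Pax4, 4 Pax6, 13 Isl1, 5 Nkx2-2, 4 Rfx6 and 10 Insm1 UMIs, that is, all of the factors other than Lmx1a. A second ileal barcode, in the Paneth-like cluster, had 3 Neurog3 UMIs beside 3 Neurod1, 2 Nkx2-2 and 11 Chga UMIs. In all, 5 Neurog3 UMIs lay in 3 kept barcodes, all of the ileum.

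The study's limits removed most Neurog3 UMIs, 58 of 63. A single duodenal barcode with 75347 UMIs and 7807 genes, past the upper limits of 50000 UMIs and 6000 genes, held 54 of them, a level of 7.17 per 10000. It also held 24 Insm1, 23 Neurod1, 14 Nkx2-2, 6 Pax4, 2 Rfx6 and 2 Lmx1a UMIs, 0 of Pax6 and Isl1, and 24 Chga, 30 Sox4 and 214 UMIs of the crypt gene Olfm4, while each of the 6 hormone genes had 4 UMIs or fewer. Whether it held 1 cell or several was not tested.

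Neurod1, a bHLH factor that follows Neurog3, belongs to the mark that chose these cells, so its values are a description. Its level in EECs was 8.70 in duodenal, 8.31 in jejunal and 10.9 in ileal cells, and 164 of the 168 cells had a UMI. In crypt, tuft, goblet and T cells it had 2, 8, 2 and 8 UMIs in all. Annotated Neurod1 overlaps Cerkl on the same strand, which had 151 UMIs in EECs, and how reads were shared between them is uncertain.

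Insm1, a zinc finger factor that represses progenitor genes in endocrine cells, stood at 2.15, 2.31 and 3.77 UMIs per 10000 in duodenal, jejunal and ileal EECs. It was found in 63.7% of EECs (55.9 to 71.0%). The ileal interval (3.35 to 4.23) lay above those of the other segments. Crypt and tuft cells had 0 Insm1 UMIs, so EECs were at least 424-fold and at least 213-fold higher, and goblet cells had 1.

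Pax4, a paired-homeodomain factor of endocrine progenitors, was sparse, with 36 UMIs in 22 EECs and levels of 0.279, 0.136 and 0.128 in the duodenum, jejunum and ileum, whose intervals overlapped. No Pax4 UMI was counted in crypt, tuft, goblet or T cells, so EECs were at least 28.7-fold, 14.4-fold and 61.5-fold higher than crypt, tuft and goblet cells. Nkx2-2, an NK-class homeodomain factor, stood at 0.660, 0.715 and 0.705 across the segments, again with overlapping intervals. It was also at 0 UMIs in crypt, tuft and goblet cells, and at least 102-fold, 51.3-fold and 219-fold higher in EECs.

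Pax6, a paired-homeodomain factor of many endocrine cells, was lower in duodenal EECs, at 1.55 (1.29 to 1.85), than in jejunal (3.30, 2.68 to 4.03) and ileal EECs (3.14, 2.76 to 3.56). An antisense gene that overlaps it, Pax6os1, had 25 UMIs in EECs, and how strand was used in counting is not given in the sources used here. Outside EECs Pax6 had 1 UMI each in tuft and goblet cells and 0 in crypt cells. Rfx6, a winged-helix factor of endocrine cells, stood at 0.838, 1.43 and 1.10, with neighbouring segments overlapping. Goblet cells held 4 Rfx6 UMIs, crypt cells 1 and tuft cells 0, the last of which puts EECs at least 77.7-fold higher than tuft cells.

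Isl1 and Lmx1a are both LIM-homeodomain factors. Isl1 stood at 3.19, 4.32 and 4.19 in duodenal, jejunal and ileal EECs, and had 1 UMI in crypt, 1 in tuft and 6 in goblet cells. Lmx1a ran the other way along the gut, at 0.990 (0.783 to 1.24), 0.374 (0.187 to 0.670) and 0.205 (0.117 to 0.333), and was found in 22 of 52, 5 of 24 and 7 of 92 EECs. The duodenal interval lay above the others. EC cells made up 42.3%, 25.0% and 18.5% of the EECs of these libraries, in the same order. Within EC cells Lmx1a was 2.66 (2.05 to 3.39), 3.12 (1.56 to 5.58) and 1.62 (0.926 to 2.63), intervals that overlapped.

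**Figure D1:**
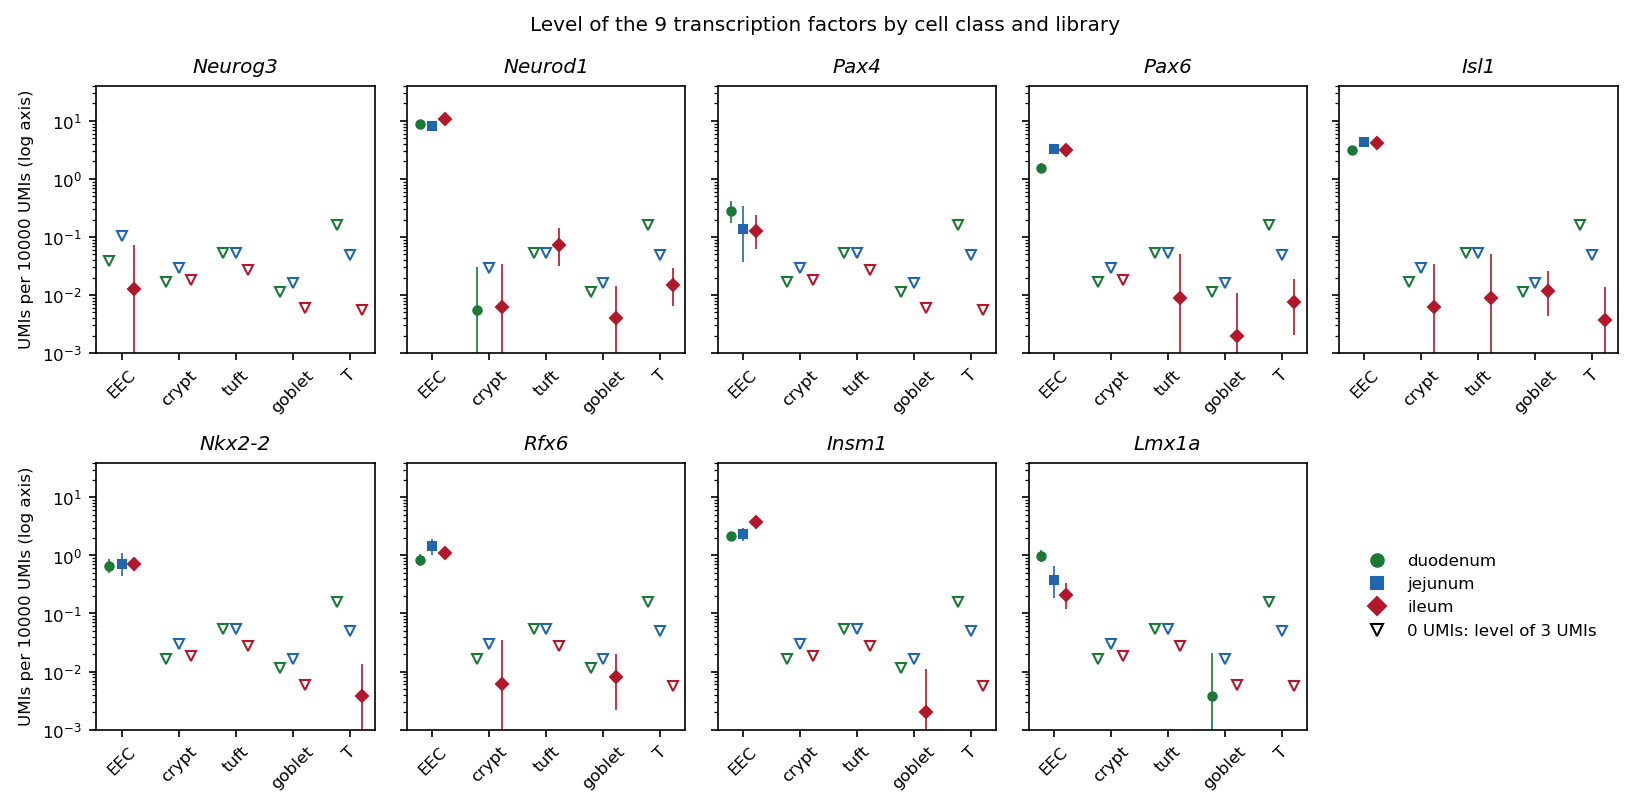
Level of each factor (UMIs per 10000 UMIs, log axis) in EEC, crypt, tuft, goblet and T cells, 1 point per library with its exact 95% Poisson interval. Open triangles mark sums with 0 UMIs at the level of 3 UMIs. Except for Neurog3, EEC points sit above those of the other classes in every library.

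In edgeR's quasi-likelihood fit of sums per library, 7 members passed the count filter in the class comparison (Neurog3 did not pass, and Neurod1 was left aside) and all 7 were called higher in EECs than in crypt, tuft and goblet cells at an adjusted p under 0.05. Of the 9958 genes tested, 26.1% were called higher in EECs against crypt cells, 17.0% against tuft cells and 20.6% against goblet cells. The 7 members passed the filter through EECs, where they are high, and EECs came from a cluster of these same cells without marked barcodes outside it, so these calls describe the class and do not test it. The median fitted log2 fold change over the 7 was 9.29, 9.29 and 8.44 in these comparisons, against 0.042, -0.0038 and -0.0017 over all genes tested. Against crypt and tuft cells this median is the fit of Nkx2-2, which had 0 UMIs in both classes. Fits of members with 0 UMIs in the other class depend on the prior count, a small count that the fit adds. They are not bounds, unlike the at-least folds given above. DESeq2 called neither Pax4, Nkx2-2 nor Lmx1a in any of the 3 comparisons, with adjusted p from 0.0681 to 0.314, nor Insm1 against tuft cells (adjusted p = 0.0642).

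Factors were seen less often in single cells once depth was made equal. A median of 4 members was detected per EEC (0 to 8), and with every cell thinned to 800 UMIs the median was 1. Thinned shares of EECs were 59.5% for Neurod1, 22.6% for Isl1, 16.1% for Insm1, 15.5% for Pax6, 8.33% for Nkx2-2, 6.55% for Rfx6, 4.76% for Lmx1a and 2.38% for Pax4, against 97.6%, 57.1%, 63.7%, 67.9%, 39.3%, 45.8%, 20.2% and 13.1% at full depth. The 1227 T cells, which should lack these genes, held 4 Pax6, 2 Isl1 and 2 Nkx2-2 UMIs and 0 of Pax4, Rfx6, Insm1 and Lmx1a, at a median of 4266 UMIs per cell against 6408 in EECs.

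Main hormones split the 168 EECs into 12 I, 8 D, 8 L, 20 K, 45 EC and 60 N cells, and 15 cells passed no threshold. Segments entered unequally, since 53 of the 60 N and 7 of the 8 L cells were ileal and 9 of the 12 I cells duodenal, so hormone and segment are partly mixed in what follows. Median depth ran from 4097 UMIs in EC and 4817.5 in N cells to 19623.5 in D cells.

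Isl1 was highest in D cells, at 9.76 (8.25 to 11.5), and next in K cells, at 7.43 (6.52 to 8.45), which overlapped. L cells stood at 4.32, N cells at 2.86 and I cells at 1.18 (0.745 to 1.76), with overlap between L and N cells. EC cells were last by far, with 1 Isl1 UMI in 45 cells. In single cells the median Isl1 level was 10.9 in D cells (5.56 to 13.3, 8 cells), 6.92 in K cells and 0 in EC cells.

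Lmx1a was found in EC cells and in cells of no hormone class. It had 91 UMIs in 30 of the 45 EC cells, a level of 2.43 (1.95 to 2.98), and 14 UMIs in 4 of the 15 cells past no threshold. The 108 I, D, L, K and N cells held 0 Lmx1a UMIs. Across single EC cells its median level was 1.72 and its highest 19.8.

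Pax6 was high in K (4.41), L (3.93) and N cells (3.02), of which K and N cells did not overlap. I cells stood at 1.53, D cells at 1.06 and EC cells at 0.614 (0.389 to 0.921). Rfx6 was likewise highest in K cells, at 2.55 (2.03 to 3.17), which overlapped L cells (1.41) and lay above N (0.685), D (0.531), EC (0.507) and I cells (0.205). Insm1 moved over a narrower range, from 4.41 in K to 1.66 in D cells, and each class overlapped its neighbour in that order.

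Neurod1 ordered the classes differently. I (13.4), N (13.0) and EC cells (11.7) overlapped at the top, followed by L (8.24), K (4.76) and, apart from all others, D cells at 1.06 (0.607 to 1.73), although all 8 D cells had a UMI. Pax4 was highest in EC cells, at 0.560 (0.347 to 0.856), with 21 of its 36 UMIs. I cells (0.256) overlapped them, while K cells had 0 UMIs and N cells 1. Nkx2-2 stood at 1.33 in L cells and 0.255 (0.136 to 0.435) in N cells, with K, EC, I and D cells between.

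**Figure D2:**
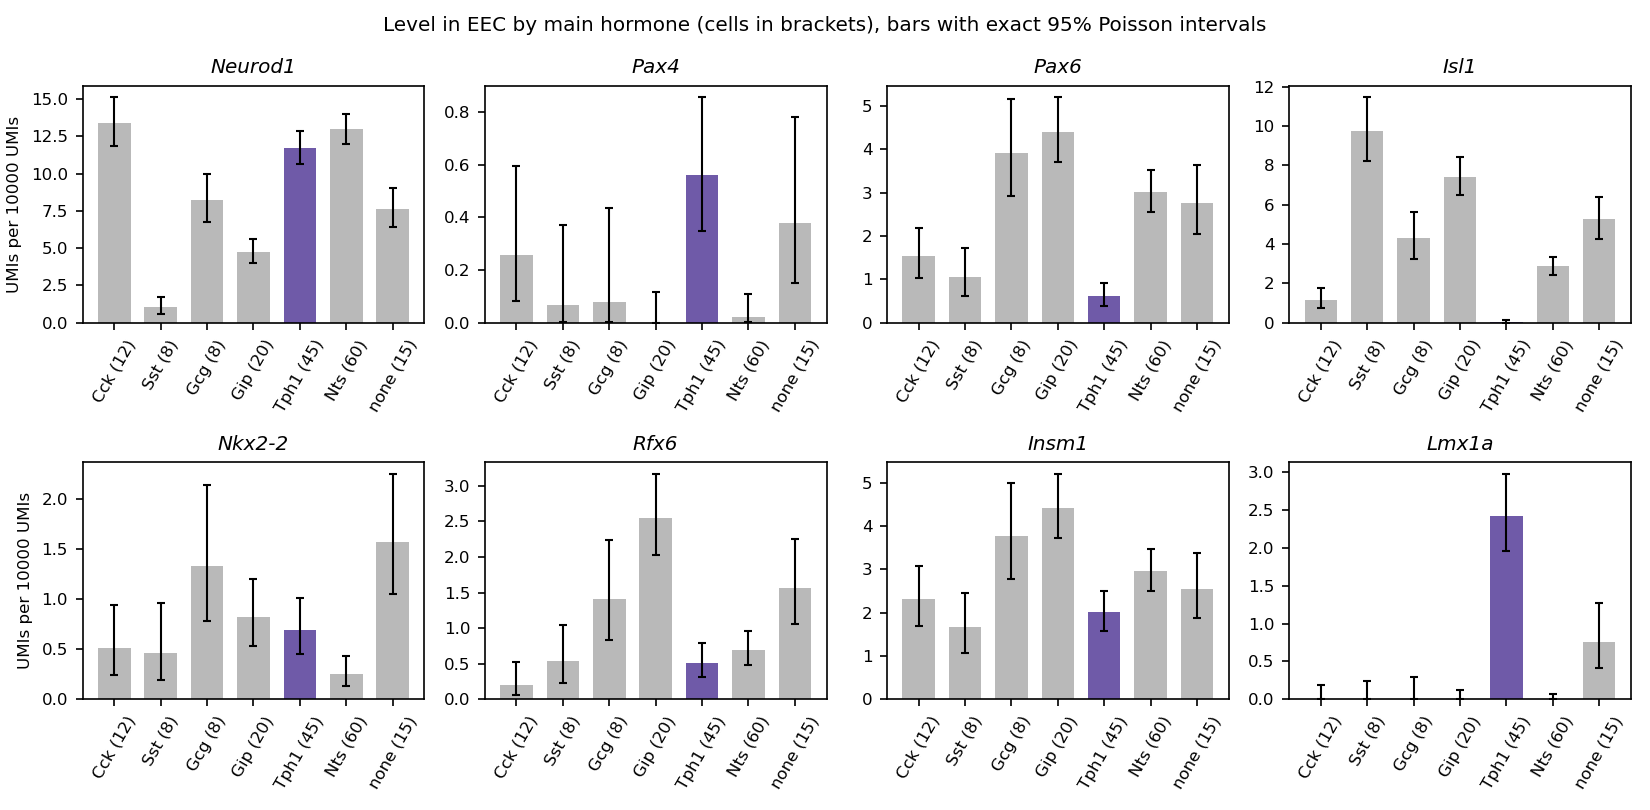
Level of the factors (UMIs per 10000 UMIs) in EECs by main hormone, summed over libraries, with exact 95% Poisson intervals and the number of cells in brackets; EC (Tph1) cells are in purple. The Lmx1a bars stand on EC cells and on cells of no hormone class, and the Isl1 bar of EC cells is close to 0.

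The comparison of EC cells with the other 5 hormone classes was drawn by Tph1 and hormone UMIs and not by the members. In duodenum, jejunum and ileum, Lmx1a was at 2.66, 3.12 and 1.62 in EC cells and at 0 in the other classes of each library. Isl1 was at 0, 0 and 0.101 in EC cells and at 4.62, 4.83 and 4.63 in the others. Pax6 was at 0.498, 0 and 1.11 in EC cells and at 2.02, 3.44 and 3.50 in the others. In each library the intervals of EC cells and of the other classes did not overlap for these genes. The jejunal EC sum held only 6 cells and 35241 UMIs, and 1 of these cells had 20999 UMIs, 6 of them of Lmx1a.

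Lmx1a rose in EC cells, at least 105-fold over the other classes (edgeR adjusted p = 6.009e-06). Isl1 fell, with a ratio of the other classes over EC cells of 175 (counting interval 31.3 to 6915, from 1 UMI in EC cells) and an edgeR adjusted p = 3.133e-06. Pax6 fell by 2.42 on the log2 scale (SE 0.41, edgeR adjusted p = 0.001515). That is 1 member higher and 2 lower of the 6 tested, where 4.04% and 2.37% of the 3710 genes tested were called higher and lower, and the median log2 fold change over all genes was -0.06. Lmx1a passed the count filter through EC cells and Isl1 through the other classes, so their place among the 6 tested adds nothing to their levels. With no filter on low counts both were called as well (edgeR adjusted p = 1.336e-21 for Lmx1a and 6.308e-19 for Isl1). The p-values of that unfiltered fit are normal-tail values. They make no allowance for only 3 libraries and add no strength to the calls.

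Rfx6 (log2 fold change -1.33, SE 0.43, edgeR adjusted p = 0.0912), Insm1 (-0.91, SE 0.35, adjusted p = 0.155) and Nkx2-2 (0.23, SE 0.45, adjusted p = 0.846) did not pass. Neurog3 and Pax4 fell under the count filter. The Pax4 level was nevertheless higher in EC cells of each library, at 0.581, 0.851 and 0.405 against 0.115, 0.0420 and 0.0318. These rest on few UMIs, and the intervals overlapped in the jejunum and the ileum but not in the duodenum. With no filter on low counts edgeR put Pax4 2.67 higher on the log2 scale (adjusted p = 0.00912). That is the unfiltered fit whose p-values add no strength. With the filter kept, Pax4 also passed it in 3 alternatives. There the log2 fold change was 2.92 (adjusted p = 0.004647) without the 10% of cells with most UMIs, 2.47 (adjusted p = 0.152) without the jejunum and 2.41 (adjusted p = 0.111) without the ileum. Enterocyte markers summed to 89.6, 206.0 and 305.0 UMIs per 10000 in EC cells of the 3 libraries and to 86.2, 114.1 and 88.5 in the other classes, and their part in these differences was not tested.

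**Figure D3:**
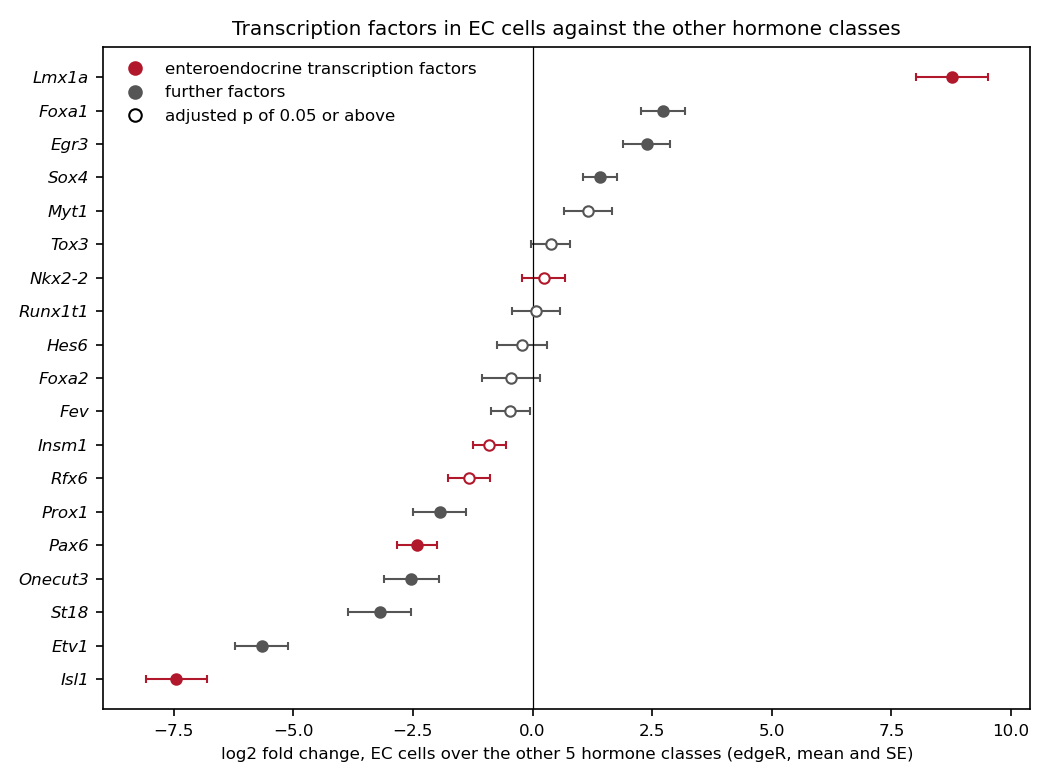
Fitted log2 fold change (edgeR, point and SE) of EC cells over the other 5 hormone classes for the members (red) and further transcription factors (grey); filled points have an adjusted p under 0.05. Lmx1a lies far right, and Isl1 and Pax6 to the left; fits of genes with 0 UMIs on either side, such as Lmx1a, depend on the prior count and are not bounds.

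Isl1 and Lmx1a never met in a cell. Among the 168 EECs, 96 had Isl1 UMIs alone, 34 had Lmx1a UMIs alone, 38 had neither and 0 had both. Neither gene was seen in every cell that may hold it, and whether 0 is fewer than depth alone would give was not tested. For comparison, Pax6 was found with Isl1 in 83 cells and with Lmx1a in 11, Insm1 with Isl1 in 74 and with Lmx1a in 23, and Pax4 with Lmx1a in 10 of its 22 cells. The 15 cells of no hormone class included 10 with Isl1 and 4 with Lmx1a. Their enterocyte markers summed to 288.2 UMIs per 10000.

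**Figure D4:**
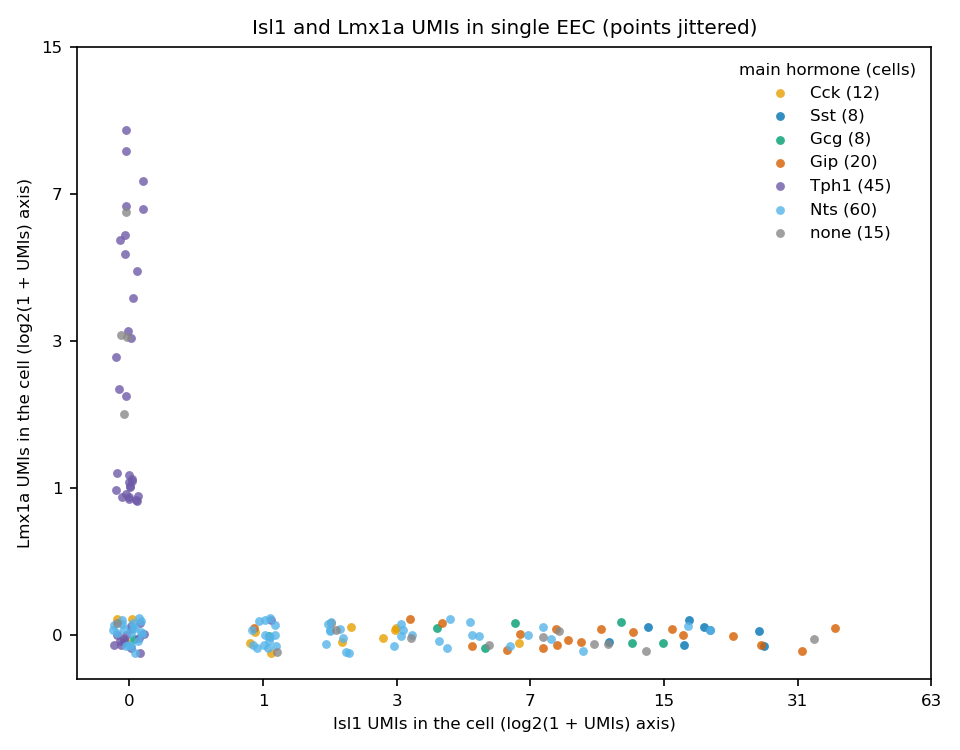
Isl1 UMIs (x axis) and Lmx1a UMIs (y axis) in each of the 168 EECs, on log2(1 + UMIs) axes with jitter, coloured by main hormone. Cells lie along either axis, with none in the area between.

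K cells were the only class with cells in similar number in each library, 7, 6 and 7, and allowed the segments to be set side by side at a given hormone. Isl1 stood at 4.45 (3.39 to 5.74), 7.31 (5.72 to 9.21) and 12.1 (9.93 to 14.7) in duodenal, jejunal and ileal K cells, with the duodenal and jejunal intervals just overlapping. Insm1 was at 1.66 (1.04 to 2.51), 4.27 (3.08 to 5.77) and 8.79 (lower end of the interval 6.92), and the 3 intervals did not overlap. By contrast Rfx6 was at 2.34, 2.74 and 2.66 and Pax6 at 3.70, 4.77 and 5.09, which overlapped. The median over single K cells ran in the same order for Isl1 (3.90, 7.28 and 12.1) and Insm1 (2.20, 4.30 and 7.59). It did so too for Neurod1 (2.53, 3.56 and 8.21), which belongs to the mark. Single cells spread widely, from 1.14 to 36.6 for Isl1 and from 0 to 11.1 for Insm1 in the ileum. In each segment the lowest Insm1 level of a K cell was 0. These are 20 cells from 3 libraries without replicate, with a median depth of 19724, 18834.5 and 12205 UMIs.

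Of 19 further transcription factors of the secretory and endocrine lineages, 13 were tested between EC cells and the other classes, of which 3 rose, 4 fell and 6 did not pass, with a median log2 fold change of -0.22. Over all 3710 genes tested, 4.04% were called higher and 2.37% lower in EC cells. Sox4, a factor of endocrine progenitors, rose by 1.41 on the log2 scale (SE 0.35, edgeR adjusted p = 0.02443), and Foxa1 and Egr3 rose as well. Summed over libraries, Sox4 stood at 8.08 UMIs per 10000 in EC cells and at 2.14 in the others. These sums lack the TMM scaling and library block of the fit and give a larger ratio. Foxa1 was called in 12 of 12 alternatives, while Egr3 was called in 8 of 12 (adjusted p up to 0.243) and Sox4 in 5 of 12 (up to 0.299). Both lost their call without the duodenum and without the jejunum. Etv1, an ETS-family factor, had 3 UMIs in EC cells against 519 in the others and fell by 5.66 on the log2 scale (SE 0.56, edgeR adjusted p = 8.091e-06), as did St18, Onecut3 and Prox1 by smaller amounts. Etv1 was called in 12 of 12 alternatives, St18 in 9 of 12 (adjusted p up to 0.143), Onecut3 in 4 of 8 (up to 0.173) and Prox1 in 3 of 12 (up to 0.316). Among the alternatives for EC cells, another hormone rule and a smaller minimum of cells left the sums unchanged and so repeat the main fit. St18 was lost without the duodenum or the jejunum, Onecut3 without the jejunum or the ileum, and Prox1 without any single library. Hhex, a homeobox gene with 81 of its 87 EEC UMIs in D cells, was found in no cell with Lmx1a, and Etv1 was found with it in 2. All 10 cells with Hhex also had Isl1. Against the other cell classes, 17 of the 19 were tested in EECs: 13 rose and 0 fell against crypt cells, 12 and 0 against tuft cells, and 10 and 4 against goblet cells, the 4 being Atoh1, Gfi1, Foxa2 and Nkx6-3. Of these calls, Nkx6-3 held in 5 of 11 alternatives (adjusted p up to 0.477) and Foxa2 in 13 of 15 against goblet cells, and Sox4 in 8 of 15 against crypt cells (up to 0.753, without the duodenum). Among the alternatives for cell classes, a minimum of 20 cells per sum also repeats the main fit. Over all genes, 26.1%, 17.0% and 20.6% were called higher and 25.0%, 18.3% and 22.2% lower in EECs in these 3 comparisons. As with the members, calls against the other cell classes describe the class and do not test it.

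Across the 7 hormone groups of EECs (the 6 classes and the cells of none), the genes with the pattern closest to each member were taken by Pearson's r of log2 levels among 5299 genes. Lmx1a was closest to Cwh43 (r = 0.9999), Serpini1 and Fmo2, and Cwh43 was at 1.87 in EC cells, 0.595 in cells of no class and 0 in the rest. Isl1 was closest to Ybx3 (r = 0.959), Abcc8 and Gsto1, and Pax6 to Plcxd3 (r = 0.984). For Neurod1 it was Zmiz2 (r = 0.975), for Nkx2-2 Wdtc1, for Rfx6 Smarca5 and for Insm1 Rsbn1l. With 7 points that share libraries and differ in depth, and many genes compared, these values describe likeness and no more.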

How the data were processed

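Single cells of 3 pooled mice were sequenced as 1 library per segment with 3′ chemistry. The authors counted UMIs with Cell Ranger version 3.0.2, as the submitters' processing notes name it, and deposited unnormalized counts; the build used is not given in the sources used here. Kept barcodes had between 800 and 50000 UMIs, between 200 and 6000 genes, and a mitochondrial share of no more than 40%. Libraries were integrated with Seurat 5.3.0 (2000 variable genes less the factors studied, 1983 in all, 30 principal components, resolution 0.8) and clusters named from marker lists; no doublet caller was run. Main hormone followed the study's thresholds on ln(1 + UMIs per 10000), 4 for Cck, Sst, Gip and Nts, 3 for Gcg and 2.5 for Tph1, with the largest margin deciding for the 24 cells past several. Sums per library and class (at least 10 cells, 5 for EC cells) were tested in R 4.3.3 with edgeR 4.0.16 (filterByExpr, TMM, library as block, Benjamini-Hochberg, 0.05), and with DESeq2 1.42.0 as an alternative. Cells of 1 library are not replicates. With library as a block, p-values measure how the differences between classes varied across the 3 segment libraries. These came from pooled mice, so no spread between animals was measured. In a test on simulated data, all genes changed by a log2 fold change of 3 were recovered, and of those changed by 1, 14.3% in the EC comparison. Positions are from GENCODE M21, which matched 99.6% of gene identifiers, and promoters from RefSeq. Other alternatives were another mitochondrial limit, normalization, count filter, block, cell sets and each library left out. Members and lists were chosen with earlier results of these data known. Named genes are the 9 members, 19 of 20 further factors (1 is not reported here), the hormone genes with Chga, and the 3 genes most like each member.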

Additional observations from a re-analysis of the deposited data

Results flagged for a closer look

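Neurod1 differed in direction between segments. The log2 ratio of EC cells over the other hormone classes was 0.79 for duodenal and 0.72 for jejunal cells, and -0.13 for ileal cells, where N cells made up most of the other classes. The ileal intervals of EC cells (8.33 to 12.4) and of the other classes (10.4 to 12.0) overlapped, so the ileal sign lies within counting error. In the duodenum and jejunum they did not overlap. The difference between segments was not tested, since each segment has 1 library.

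Nkx2-2 also changed side, with a log2 ratio of -0.22 (duodenum), 0.17 (jejunum) and 1.28 (ileum), likewise not tested. In each library the intervals of EC cells and of the other classes overlapped, so these signs lie within counting error.

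Barcodes outside the cell limits held 58 Neurog3 UMIs, against 5 in kept barcodes, and 54 of them came from the duodenal barcode with 75347 UMIs. A further ileal barcode with 97142 UMIs held 2, with 11 Neurod1, 14 Insm1 and 188 Chga UMIs.

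Among removed barcodes, 16 held both a Neurod1 and a Chga UMI, 3 duodenal, 3 jejunal and 10 ileal, and 9 of them exceeded 40% mitochondrial UMIs.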

How the results depend on the processing

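Lmx1a, Isl1 and Pax6 kept their call and direction between EC cells and the other classes in each of the 12 alternatives, of which another hormone rule and a smaller minimum of cells left the sums unchanged; the highest adjusted p was 0.0461 for Pax6 (without the 10% of cells with most UMIs). Of 72 member values in this comparison, 70 kept side and direction; Nkx2-2 reversed to -0.087 without those cells and to -0.41 without the ileum (0.68 without the duodenum), and was not called in either. In the class comparisons 289 of 299 member values kept their call, and the 10 lost were all under DESeq2. The 299 include a minimum of 20 cells per sum, which left the sums unchanged. The cause was not tested for any of these changes.

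Genes called higher in EC cells numbered 79 at a limit of 20% mitochondrial UMIs, 248 without TMM, 88 with DESeq2, 93 without the library block and 65 to 113 with 1 library left out (65 without the duodenum, 76 without the jejunum), against 150. Genes called lower numbered 54 without the 10% of cells with most UMIs, 195 with no count filter, 48 with DESeq2, 54 without the block and 52 to 66 with 1 library left out (52 without the duodenum, 55 without the jejunum), against 88. Without TMM, 5088 genes were higher and 788 lower in EECs against goblet cells, where the median log2 fold change over all genes moved to 0.79; against tuft cells the numbers were 2262 and 1298, with a median of 0.23.

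Neurog3 rose to 62 UMIs with no upper limit on UMIs and genes, an alternative chosen after seeing the data. As means of single cells' levels, Neurod1 was 11.9, Pax4 0.318, Pax6 2.82, Nkx2-2 0.870, Insm1 2.32 and Lmx1a 0.689.

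Among further factors 17 of 891 values reversed. With marked barcodes of any cluster, Sox4 (-1.01), Tox3 (-0.42) and Foxa2 (-0.61) reversed against crypt cells, Tox3 (-1.49) and Foxa1 (-1.04) against goblet cells, and St18 (-1.90) and Rfx3 (-0.25) against tuft cells. Gfi1 against tuft cells was -0.16 at the 20% limit and -0.014 to 0.32 with 1 library left out, and Foxa1 against goblet cells -0.17 (without the duodenum) to 1.07. Without TMM, Hes6 was 0.27 against goblet cells and 0.077 in EC cells, where leaving out 1 library gave -1.39 to 0.41. In EC cells Runx1t1 was -0.16 with DESeq2 and -0.48 (without the duodenum) to 0.57 with 1 library left out, with -0.047 without the ileum, and Tox3 -0.12 (without the duodenum) to 0.69. The comparisons were paired within libraries, since the library was a block in each fit other than the alternative without the block.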
